A study of Sus scrofa with 19 samples.

Results

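Adrenergic receptors and the kinases that switch them off were followed in RNA-seq counts of tissue labelled left ventricle (LV) from 19 pigs, with 1 library per pig. The set holds 8 genes of the 25879 in the count files, found by symbol in the authors' expression table and by Ensembl identifier in the counts. They are the ß1 receptor ADRB1 (ENSSSCG00000010647), the ß3 receptor ADRB3 (ENSSSCG00000015821), the α1 receptors ADRA1A (ENSSSCG00000009661), ADRA1B (ENSSSCG00000017041) and ADRA1D (ENSSSCG00000007139), the α2A receptor ADRA2A (ENSSSCG00000010629), and the kinases GRK2 (ENSSSCG00000012918) and GRK5 (ENSSSCG00000010683). Of the 8, 6 passed the filter on low counts, as did 13552 genes in all, and ADRA2A and ADRB3 did not.

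The labels describe all pigs as female large whites. Pigs of the DOX group (n = 5) were given doxorubicin, an anthracycline that damages heart muscle, and MYO pigs (n = 5) its liposomal form Myocet, both in 3 cycles at a dose stated as 60 mg/m2 of body surface. Their LV tissue came from the anterior wall 3 months after the first injection, since the animals were in poor health. In RemoLV (n = 3), a balloon closed the left anterior descending artery for 90 min, and posterior wall tissue, remote from the infarct, was taken after 6 months. In Hyper (n = 3), a stent in the descending aorta became an isthmus stenosis as the pig grew, and the anterior wall was sampled after 6 months. Control pigs (n = 3) were sampled at 6 months and are called sham-operated in the labels and both sham-operated and untreated in the study's text. Drug treatment and the shorter follow-up cannot be told apart, nor can RemoLV and the wall sampled. The count files of Hyper and Control carry numbers of one series and those of DOX, MYO and RemoLV numbers of others. What the numbers stand for is not given in the sources used here, and whatever they mark cannot be told apart from these groups.

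The names of the samples conflict between the deposits. Matched by rank correlation, each column of the authors' table paired with a single count file (Spearman rho 1.0, with 0.9919 as the highest of all other pairs), and 8 of the 19 files bear the name of another group than their column. The files labelled Control 1 to 3 are the RemoLV columns of the table and the files labelled RemoLV are its Control columns, while DOX 5 and MYO 1 are exchanged. The files Hyper 1 and Hyper 3 carry each other's number in the table, within the same group. Group names below are those of the count files (file labels), and levels per group follow them. Tests of the 6 genes that passed the filter under the names of the table (table names) are given too, and other results where stated. The comparison of DOX and MYO together with Hyper holds the same libraries under both namings.

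The libraries labelled RemoLV also stand apart by their markers. MYL2, the ventricular myosin light chain, was at 18.6 to 115 CPM (counts per 1000000, with the library size scaled by TMM) there and at 8980 CPM or more in every other library, and the ventricular transcription factor IRX4 was at 0 to 0.178 CPM. MYL4, the atrial light chain, was at 6030 to 8130 CPM there and at most 21.9 CPM elsewhere. These 3 genes go against the label of ventricular tissue. The other ventricular markers were lower but present, with MYH7 at 22300 to 26000 CPM and HEY2 at 2.54 to 4.99 CPM, and the 5 summed to 25000 to 29100 CPM against 45000 or more elsewhere. Of 8 atrial markers, 6 were found in the files, and their sum was 9930 to 13000 CPM in RemoLV, 1110 to 2410 in DOX, 761 to 1250 in MYO, 193 to 1260 in Hyper and 85.2 to 140 in Control. The counts of 4 Y-chromosome genes summed to 172 to 252 CPM in every pig given an anthracycline and to 0.226 CPM or less in every other pig. They go against the label female, and sex cannot be told apart from drug treatment. Library totals ranged from 9527710 to 20370209 counts, with a median of 14527230.

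Adrenergic receptors bind noradrenaline and adrenaline. In heart muscle cells, ß receptors act through the stimulatory G protein Gs, adenylyl cyclase, cyclic AMP and protein kinase A to raise the rate and force of contraction, whereas α1 receptors act through Gq and phospholipase C. The α2 receptors act through Gi, and on sympathetic nerve endings they restrain noradrenaline release. G protein-coupled receptor kinases such as GRK2 and GRK5 phosphorylate the active receptor, after which arrestins bind it and its signal fades.

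The genes are placed here on Sscrofa11.1, the build the authors used, with the RefSeq annotation. ADRB1 is a gene of 1 exon at chr14:124400330-124401739 on the plus strand, and ADRA2A, also of 1 exon, lies on the same chromosome at chr14:121469572-121470924. ADRA1A is at chr14:10623391-10733378 (minus strand), ADRA1B at chr16:63550123-64010838 (minus), ADRA1D at chr17:31517021-31537361 (plus) and ADRB3 at chr15:48468803-48478370 (plus). GRK2 lies at chr2:5209435-5227543 (minus) and GRK5 at chr14:129113933-129351135 (plus). No other gene of the same strand overlaps any of the 8, and the authors counted by strand.

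With the file labels, the 2 kinases differed from Control in opposite directions in the DOX and MYO libraries. GRK5 was also lower in RemoLV (log2 fold change -1.10) and was at -0.02 in DOX and MYO against Hyper. Under the table names neither kinase passed against Control in DOX or MYO. The 250 bases before their annotated starts are shown, with a match to GGGCGG, the Sp1 box, in capitals. The window of GRK2 is chr2:5227544-5227793 (minus strand) and that of GRK5 chr14:129113683-129113932 (plus strand), both read 5′ to 3′ from the Sscrofa11.1 genome.
GRK2: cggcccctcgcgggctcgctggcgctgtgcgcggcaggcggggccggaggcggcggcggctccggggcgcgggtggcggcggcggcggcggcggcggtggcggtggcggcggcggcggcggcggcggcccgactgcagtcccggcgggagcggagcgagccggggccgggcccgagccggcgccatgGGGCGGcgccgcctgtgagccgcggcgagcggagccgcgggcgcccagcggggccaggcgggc
GRK5: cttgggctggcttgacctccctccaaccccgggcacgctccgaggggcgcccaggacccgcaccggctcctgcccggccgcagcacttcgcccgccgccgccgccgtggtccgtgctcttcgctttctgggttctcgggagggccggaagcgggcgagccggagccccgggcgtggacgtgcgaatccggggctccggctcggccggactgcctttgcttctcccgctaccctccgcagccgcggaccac
GC content was 88.8% in the GRK2 window and 75.2% in the GRK5 window, beside a median of 57.6% over the windows of 19557 genes. Both strands were searched for 3 motifs. The Sp1 box was found 1 time in GRK2 and 0 times in GRK5, and in 45.9% of all windows. The cAMP response element TGACGTCA, held by 1.7% of all windows, and the E-box CANNTG, held by 61.9%, had 0 matches in both. These are counts of letters in a short window, and no binding was measured here.

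ADRB1, the main ß receptor of the ventricle, stood at 13.7 ± 3.77 CPM per kb of coding sequence (SD, n = 3) in Control and 35.9 ± 2.79 (n = 5) in DOX. In CPM, the DOX libraries 1 to 5 stood at 49.4, 53.3, 55.3, 49.9 and 45.04 and the MYO libraries at 33.7, 44.3, 51.0, 42.7 and 44.8. The Hyper libraries were at 13.1, 19.8 and 20.6 CPM, the Control libraries at 25.2, 18.1 and 14.7, and the RemoLV libraries at 37.4, 45.5 and 37.3. All 13 libraries labelled DOX, MYO or RemoLV thus lay above all 6 labelled Hyper or Control, with 33.7 CPM as the lowest of the former and 25.2 CPM as the highest of the latter, a split that runs along the numbering of the count files. With bulk tissue, a change in the number of cells that express a gene and a change in RNA per cell cannot be told apart.

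Against Hyper, ADRB1 was 2.63-fold higher in DOX and MYO together (log2 fold change 1.39 ± 0.17 SE, adjusted p = 7.26e-06). By the table names, which hold the same libraries in this comparison and so cannot test the naming, it was 2.63-fold higher (adjusted p = 1.27e-05). Leaving out any of the 13 libraries kept it between 1.21 and 1.51, with an adjusted p of at most 0.000118. Markers also separated these groups: the 6 of all cardiomyocytes summed to 24800 to 29900 CPM in DOX and MYO and to 31200 to 33100 CPM in Hyper, with TNNT2 and TNNC1 lower and MYBPC3 higher in all 10 libraries. Of the ventricular markers, IRX4 was at 19.3 to 27.7 and at 8.38 to 10.3 CPM. MYL2 went the other way, at 8980 to 13500 and at 13500 to 17200 CPM, and MYH7, HEY2 and MYL3 overlapped. The endothelial sums overlapped, although KDR did not (60.7 to 142 against 41.2 to 52.4 CPM), and the nerve and Schwann cell sum was 18.5 to 26.8 against 15.8 to 17.6 CPM. The part of these markers was not tested. Against Control, ADRB1 was 2.62-fold higher in DOX (adjusted p = 1.58e-05), 2.24-fold in MYO (7.56e-05) and 2.08-fold in RemoLV (0.000236). For Hyper against Control the log2 fold change was -0.12 with a 95% interval from -0.49 to 0.26 (adjusted p = 0.78). These Control comparisons share the same 3 Control libraries. By the table names, where Control is made of the libraries labelled RemoLV, ADRB1 was lower in RemoLV (log2 fold change -1.05, adjusted p = 0.000368) and Hyper (-1.17, adjusted p = 0.000213), and the values for DOX (0.27, adjusted p = 0.267) and MYO (0.18, adjusted p = 0.465) did not pass the test. DOX and MYO differed from each other by 0.22 (95% interval -0.06 to 0.51, adjusted p = 0.768).

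**Figure D1:**
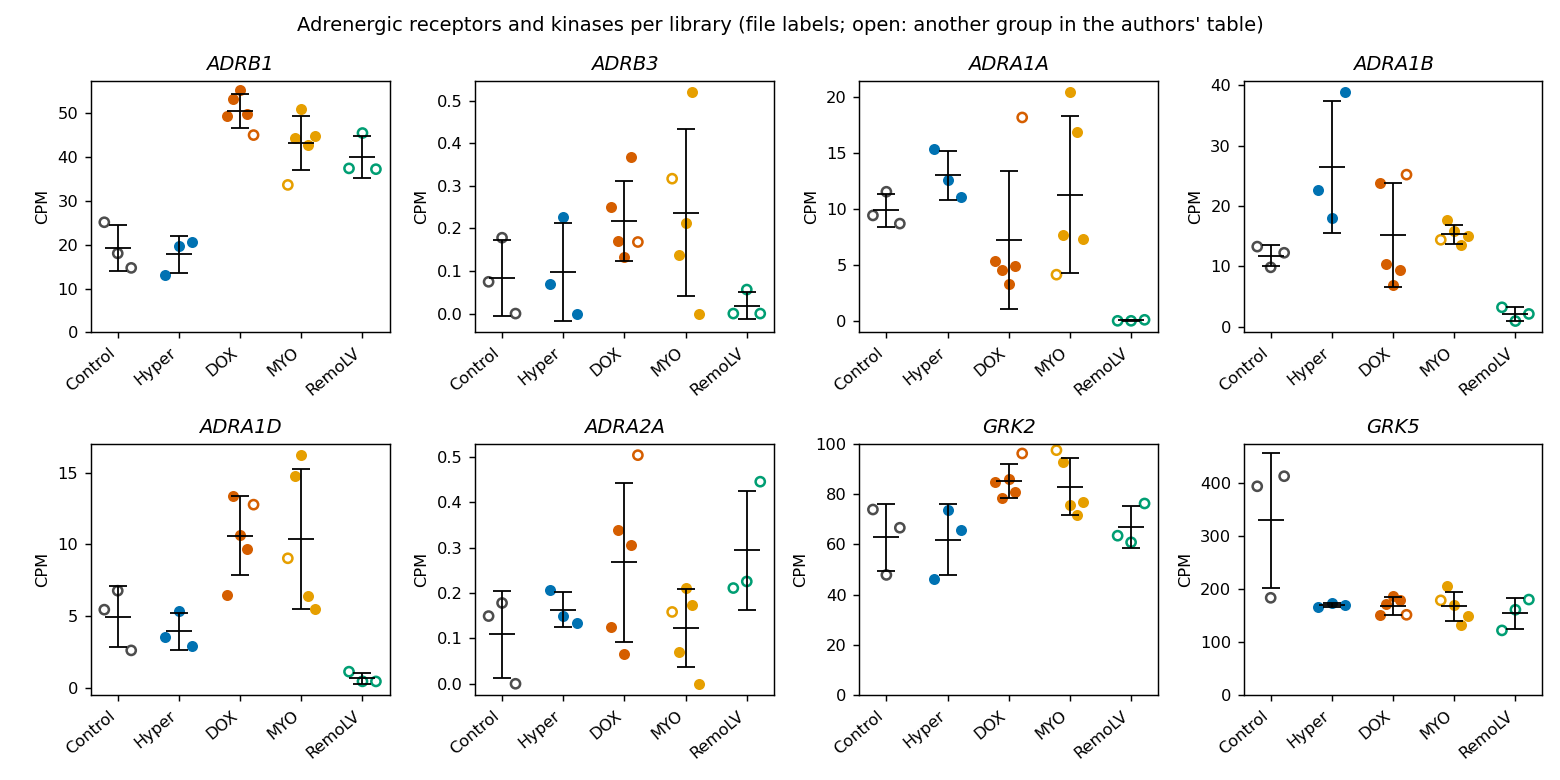
Level in CPM of the 8 genes in each of the 19 libraries by file label, with the mean and SD of each group as bars. Open points are libraries that another group name is given in the authors' table. ADRB1 is above 33 CPM in all DOX, MYO and RemoLV libraries, the α1 receptors are lowest in RemoLV, and GRK5 is highest in 2 Control libraries.

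ADRB3, the ß3 receptor, which in the heart is tied to nitric oxide signalling and in fat to lipolysis, had 0 to 6 counts in each of the 19 libraries and at most 0.519 CPM. It did not pass the filter, and in the edgeR fit with no filter it passed in 0 of 7 comparisons (lowest unadjusted p 0.171). Of 6 adipocyte markers, LIPE was at 39.3 to 64.1 CPM in RemoLV against at most 24.7 CPM elsewhere, and CIDEC also lay above all other libraries there. ADIPOQ and PLIN1 reached their highest levels in RemoLV (77.5 and 10.4 CPM) with ranges that overlapped the other groups, LEP had at most 1 count per library, and PLIN4 alone was lower there, at 68.9 to 83.3 against at least 84.2 CPM.

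The α1 receptors, which act on growth and contractility, were all 3 lowest in the libraries labelled RemoLV. ADRA1A, the α1 subtype best known in heart muscle cells, had 0, 0 and 1 counts in RemoLV 1 to 3. In the Control libraries it was at 9.41, 11.5 and 8.67 CPM and in the Hyper libraries at 15.3, 12.6 and 11.06 CPM. With 3 counts per library as the floor, ADRA1A was at least 45.7-fold lower in RemoLV than in Control and at least 60.1-fold lower than in Hyper, and at least 15.1-fold below the lowest of the 16 other libraries. The fitted test gave adjusted p = 1.87e-05 against Control and 1.25e-05 against Hyper.

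Among the anthracycline pigs ADRA1A was uneven. DOX 1 to 4 stood at 5.37, 4.49, 3.27 and 4.89 CPM and DOX 5 at 18.2 CPM, while the MYO libraries 1 to 5 stood at 4.12, 7.62, 20.38, 16.9 and 7.28 CPM. DOX 5 and MYO 1 are the pair whose names are exchanged in the authors' table. With the file labels, DOX and MYO overlapped, and the log2 fold change of DOX against MYO was -0.65 (SE 0.43, adjusted p = 0.773). Under the table names, the 5 DOX libraries lay between 3.27 and 5.37 CPM and the 5 MYO libraries between 7.28 and 20.38 CPM, with no overlap. The log2 fold change was then -1.66, which did not pass the edgeR test (adjusted p = 0.0622) and passed DESeq2 (adjusted p = 1.93e-05). Without MYO 2 or MYO 5 of the table names the edgeR adjusted p was 0.015 and 0.0116. Against Control, ADRA1A in DOX was at -0.46 (adjusted p = 0.471) on the log2 scale, and without DOX 5 at -1.13 (adjusted p = 0.0309).

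ADRA1B, another Gq-coupled α1 receptor, was at 3.24, 0.959 and 2.14 CPM in the RemoLV libraries and at 13.3, 9.86 and 12.3 CPM in the Control libraries. The Hyper libraries stood at 22.7, 18.0 and 38.8 CPM, all above every Control library. The DOX libraries spread from 6.999 to 25.2 CPM with a median of 10.4, and the MYO libraries kept within 13.5 to 17.7 CPM. ADRA1B was 5.67-fold lower in RemoLV than in Control (log2 fold change -2.50 ± 0.48 SE, adjusted p = 0.0004) and 12.8-fold lower than in Hyper (adjusted p = 1.66e-05). The Hyper to Control difference of 1.17 on the log2 scale did not pass the test (95% interval 0.35 to 1.99, adjusted p = 0.179). Against Hyper, DOX and MYO were at -0.80 (adjusted p = 0.0603), and without Hyper 3 at -0.42 (adjusted p = 0.399). Without DOX 1, DOX 5 or Hyper 2 the difference passed (lowest adjusted p 0.0241, without DOX 5), and under the table names -0.81 passed (adjusted p = 0.0455).

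ADRA1D, the α1 subtype found mainly in vessels, separated the drug-treated pigs from Hyper. It stood at 6.49, 13.4, 10.7, 9.66 and 12.8 CPM in DOX 1 to 5 and at 9.03, 14.8, 16.2, 6.41 and 5.50 CPM in MYO 1 to 5. The Hyper libraries were at 3.57, 5.34 and 2.88 CPM, below all 10 of them, and the Control libraries at 5.45, 6.77 and 2.61 CPM. RemoLV 1 to 3 had 1.13, 0.451 and 0.446 CPM. The 7 smooth muscle and pericyte markers did not move together: RGS5 was at 365 to 461 CPM in DOX and MYO and at 517 to 560 CPM in Hyper, CNN1 at 24.4 to 145 and at 15.9 to 23.6 CPM, and the ranges of the other 5 overlapped. Their part in the difference was not tested.

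ADRA1D was 2.67-fold higher in DOX and MYO than in Hyper (log2 fold change 1.42 ± 0.37 SE, adjusted p = 0.00716), and the largest adjusted p with a library left out was 0.0459, without Hyper 1. Against Control it was 2.13-fold higher in DOX (adjusted p = 0.0307) and 2.10-fold higher in MYO (adjusted p = 0.0328), and without Control 3 the adjusted p was 0.161 and 0.171. It was 7.27-fold lower in RemoLV than in Control (adjusted p = 0.000269) and 5.75-fold lower than in Hyper (adjusted p = 0.00123). Named as in the table, all 3 α1 receptors were higher in each of the 4 groups than in Control, with log2 fold changes of 2.50 to 3.67 for ADRA1B and 2.52 to 4.03 for ADRA1D, because the libraries with the low values are then the Control group. The ventricular and atrial markers given above move with the same 3 libraries. So do the sums of the fibroblast markers (10700 to 12300 CPM in RemoLV against at most 7070 elsewhere), of the 6 markers of all cardiomyocytes (18900 to 20200 against at least 24800) and of the 5 endothelial markers (648 to 727 against at least 750). Single markers did not all follow. COL3A1 held 5960 to 6940 CPM of the fibroblast sum in RemoLV, while LUM and TCF21 overlapped other libraries. So did TNNT2, RYR2, MYOZ2 and each endothelial marker. The part of all these markers in the α1 values was not tested.

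ADRA2A, a brake on noradrenaline release from nerve endings, had 0 to 6 counts in each library and at most 0.504 CPM. In the fit with no filter it passed in 0 of 7 comparisons as well (lowest unadjusted p 0.144). Markers of nerve and Schwann cells, 5 of 6 found in the files, summed to 15.8 to 49.5 CPM over all libraries. The 2 other α2 receptors are given for context. ADRA2B averaged 2.12 ± 0.902 CPM in Control, 2.08 ± 0.0797 in Hyper, 3.78 ± 0.826 in DOX, 4.94 ± 0.961 in MYO and 2.91 ± 0.544 in RemoLV (SD). ADRA2B was 2.07-fold higher in DOX and MYO than in Hyper (adjusted p = 0.00354), and all 10 drug-treated libraries were above the 3 Hyper libraries. ADRA2C ranged from 4.16 to 9.45 CPM over the 19 libraries and passed the edgeR test in 0 of 7 comparisons, where its lowest unadjusted p was 0.0908.

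The make-up of the receptor counts differed between the groups. It was taken over 8 adrenergic receptor genes, the 6 of the set with ADRA2B and ADRA2C. ADRB1 took 34.9% ± 4.10 of these counts in Control, 25.2% ± 4.18 in Hyper, 54.5% ± 9.02 in DOX, 46.4% ± 3.22 for MYO and 75.6% ± 6.15 for RemoLV (SD over libraries). The α1 receptors took 49.0% ± 4.26 in Control, 61.6% ± 7.26 in Hyper, 34.2% ± 10.2 in DOX, 39.0% ± 4.79 for MYO and 5.41% ± 3.04 for RemoLV. All 10 drug-treated libraries had a larger ADRB1 share than any Hyper library, at 40.5% or more against 29.5% or less. The share rests on 593 to 1662 receptor counts per library, and the 95% Wilson interval of the DOX 5 share, the lowest of the 10, was 37.9% to 43.2%. The summed receptor level was 54.7 ± 8.59 CPM in Control, 70.5 ± 10.9 in Hyper, 94.1 ± 10.8 in DOX, 93.6 ± 15.7 for MYO and 52.9 ± 2.27 for RemoLV. The RemoLV libraries, at 50.7 to 55.2 CPM, lay within the Control range of 46.6 to 63.7 CPM. By the table names the Control and RemoLV values of these shares and sums change places.

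**Figure D2:**
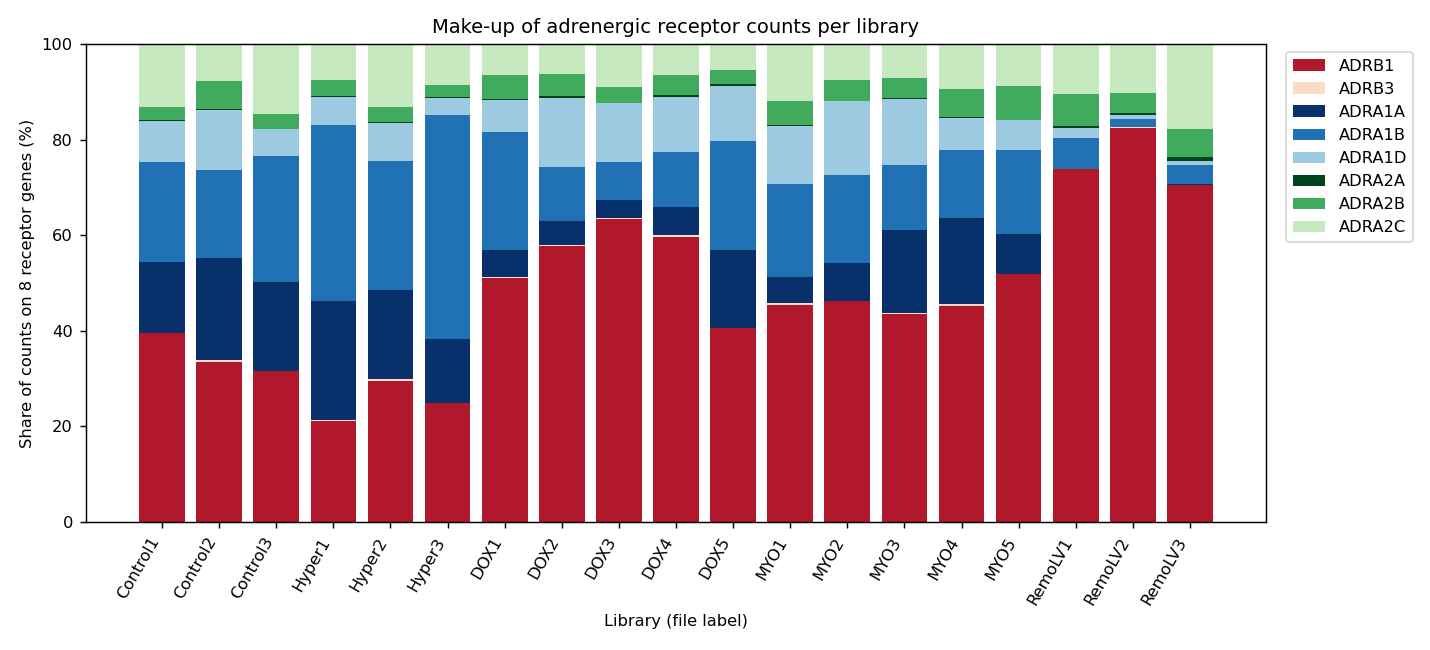
Share of the counts of 8 adrenergic receptor genes (y axis, %) held by each gene in each of the 19 libraries (x axis, file labels). ADRB1 (dark red) takes 70.5% to 82.4% in the RemoLV libraries and 21.2% to 29.5% in the Hyper libraries, and the α1 receptors (blue) take a mean of 5.41% and 61.6%.

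Of the kinases, GRK2, which is recruited to the active ß receptor by the Gßγ subunits, was moderately higher in the drug-treated pigs. It stood at 85.0, 78.6, 86.2, 80.8 and 96.2 CPM in DOX 1 to 5 and at 97.5, 92.7, 75.8, 71.9 and 77.0 CPM in MYO 1 to 5. The Hyper libraries had 46.2, 73.8 and 65.6 CPM, the Control libraries 73.9, 47.9 and 66.7 and the RemoLV libraries 63.5, 60.9 and 76.3. All DOX libraries lay above all Control and Hyper libraries, while the MYO range overlapped both. GRK2 was 1.36-fold higher in DOX and MYO than in Hyper (log2 fold change 0.44 ± 0.14 SE, adjusted p = 0.0245), and without Hyper 1 at 0.27 (adjusted p = 0.215).

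Against Control, GRK2 was 1.36-fold higher in DOX (adjusted p = 0.0309) and 1.32-fold higher in MYO (adjusted p = 0.0471). Without Control 2 the log2 fold changes were 0.28 (adjusted p = 0.166) and 0.24 (adjusted p = 0.236), and under the table names 0.36 (adjusted p = 0.0939) and 0.31 (adjusted p = 0.152). DESeq2 kept the DOX difference (adjusted p = 0.0308) and not the MYO difference (adjusted p = 0.0553). For RemoLV against Control the value was 0.09 (95% interval -0.25 to 0.43, adjusted p = 0.693) and for Hyper -0.02 (95% interval -0.36 to 0.32, adjusted p = 0.966).

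GRK5, the kinase that binds the membrane without Gßγ and is also known to enter the nucleus of heart muscle cells, was the more abundant of the pair per coding length, with 178 ± 68.4 CPM per kb in Control against 26.6 ± 5.70 for GRK2 (SD, n = 3). In CPM the Control libraries stood at 393, 183 and 412, of which 2 were far above all other libraries. The same 2 libraries had the lowest TMM factors of all, 0.7349 and 0.6963 against 0.9649 in Control 2, and a low factor raises CPM. The Hyper libraries were at 166, 175 and 170 CPM, the RemoLV libraries at 122, 161 and 180, and the DOX and MYO libraries ranged from 133 to 205 with a median of 171. Control 2, at 183 CPM, lay within the range of DOX and MYO. Against Control, GRK5 was lower in DOX with a log2 fold change of -0.97 (adjusted p = 0.000891), in MYO with -0.98 (adjusted p = 0.000802) and in RemoLV with -1.10 (adjusted p = 0.00076).

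For Hyper against Control, GRK5 had a log2 fold change of the same size, -0.95 with a 95% interval from -1.40 to -0.51, and did not pass the edgeR test (adjusted p = 0.102), whereas DESeq2 called it (adjusted p = 0.00769). Without Control 2 it was -1.24 and passed (adjusted p = 0.000249), without Hyper 1 it also passed, and without Control 3 it was -0.76 (adjusted p = 0.696). The difference of DOX and MYO together from Hyper was -0.02 and did not pass (95% interval -0.38 to 0.33, adjusted p = 0.935). In the table's naming the high libraries are RemoLV 1 and 3, and GRK5 was then 2.14-fold higher in RemoLV than in Control (adjusted p = 0.000698) with values of 0.07 to 0.17 on the log2 scale in the other 3 groups, none past the test. The ratio of GRK5 to GRK2 counts was 5.11 ± 1.19 in Control, 2.85 ± 0.656 in Hyper, 1.98 ± 0.296 in DOX, 2.02 ± 0.20 in MYO and 2.31 ± 0.363 in RemoLV (SD), and the Control libraries, at 3.83 to 6.19, lay above the Hyper maximum of 3.60. These Control libraries are RemoLV by the table names.

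**Figure D3:**
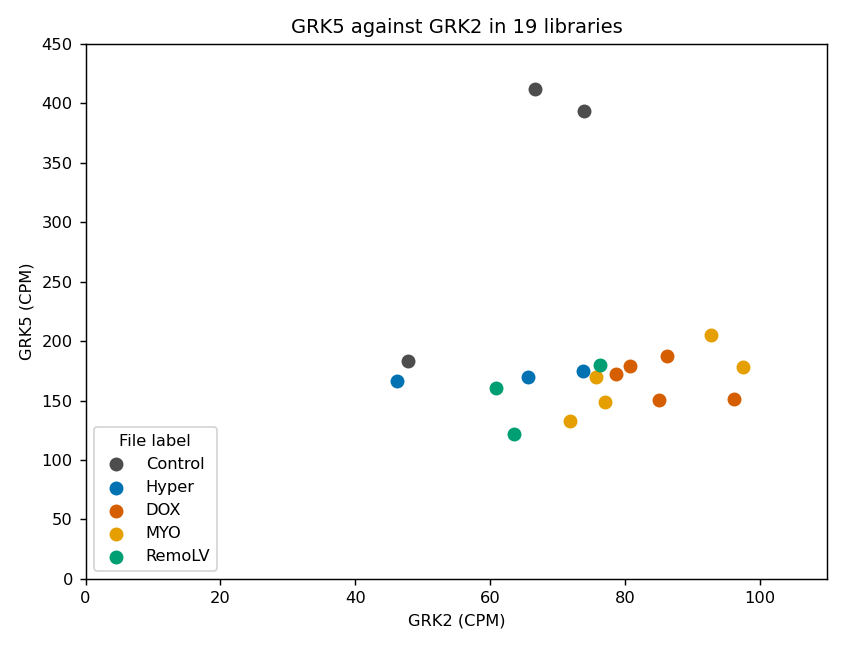
GRK5 (y axis, CPM) against GRK2 (x axis, CPM) in the 19 libraries, coloured by file label. Control 1 and Control 3 stand at 393 and 412 CPM of GRK5, while the other 17 libraries lie between 122 and 205 CPM.

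In counts, 3 of the 6 tested genes were higher in DOX and MYO than in Hyper (ADRB1, ADRA1D and GRK2), where 15.8% of all genes tested were higher, and 0 were lower, where 16.9% were. In either direction 32.6% of all genes passed. Under the table names 3 were higher (15.8% of all genes) and 2 lower (16.9%), beside 32.7% of all genes in either direction. The lower ones were ADRA1A (log2 fold change -0.72, adjusted p = 0.0405, and 0.206 without the table's Hyper 3) and ADRA1B.

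DOX against Control gave 3 higher and 1 lower of the 6, beside 21% and 21.1% of all genes and 42.1% in either direction. MYO against Control gave 3 higher and 1 lower as well, beside 20.7%, 21.7% and 42.4%. Without DOX 5, DOX against Control gave 1 higher and 2 lower, beside 2767 and 2765 of 13555 genes. RemoLV against Control gave 1 higher and 4 lower, beside 23.1%, 24% and 47.2% of all genes. RemoLV against Hyper gave 1 higher and 3 lower, beside 17%, 18.6% and 35.6%. The α1 receptors and GRK5 make up the lower genes of the RemoLV comparison with Control.

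Hyper against Control called 0 of the 6 and 0% of all genes with edgeR, with 2 of the 6 at an unadjusted p under 0.05 and 1, GRK5, called by DESeq2 (beside 105 higher and 207 lower of 12486 genes). The 0% was not stable. Without Control 2, 1285 genes were higher and 1253 lower of 13792, and without Hyper 1, 330 and 443 of 13795. DOX against MYO called 0 of the 6 and 0% of all genes, with 0 of the 6 at an unadjusted p under 0.05, and DESeq2 called 0 of the 6.

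Under the names of the table, 3 of the 6 were higher and 0 lower in DOX than in Control, beside 15% and 14.6% of all genes and 29.6% in either direction. MYO gave 3 higher and 0 lower, beside 14.8%, 14.4% and 29.2%. RemoLV gave 4 higher and 1 lower, beside 24%, 23.2% and 47.2%, and Hyper 3 higher and 1 lower, beside 18.7%, 17.2% and 35.8%. In DOX against MYO 0 were called (0% of all genes), with 1 at an unadjusted p under 0.05 and 1 called by DESeq2, and in RemoLV against Hyper 0 (0%), with 2 and 1. Over all genes DESeq2 called 10 higher and 20 lower of 13535 in the former, and 217 and 122 of 11436 in the latter.

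The study also asks for a log2 fold change of 2 or more in either direction. With the file labels the 3 α1 receptors met it in RemoLV against Control (6.35% of all genes) and in RemoLV against Hyper (4.93%), and none of the 6 met it in DOX (2.75%) or MYO (2.47%) against Control or in DOX and MYO against Hyper (1.75%). Under the table names the 3 α1 receptors met it against Control in DOX (4.38%), MYO (4.18%), RemoLV (6.34%) and Hyper (4.99%), and none of the 6 in DOX and MYO against Hyper (1.76%).

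**Figure D4:**
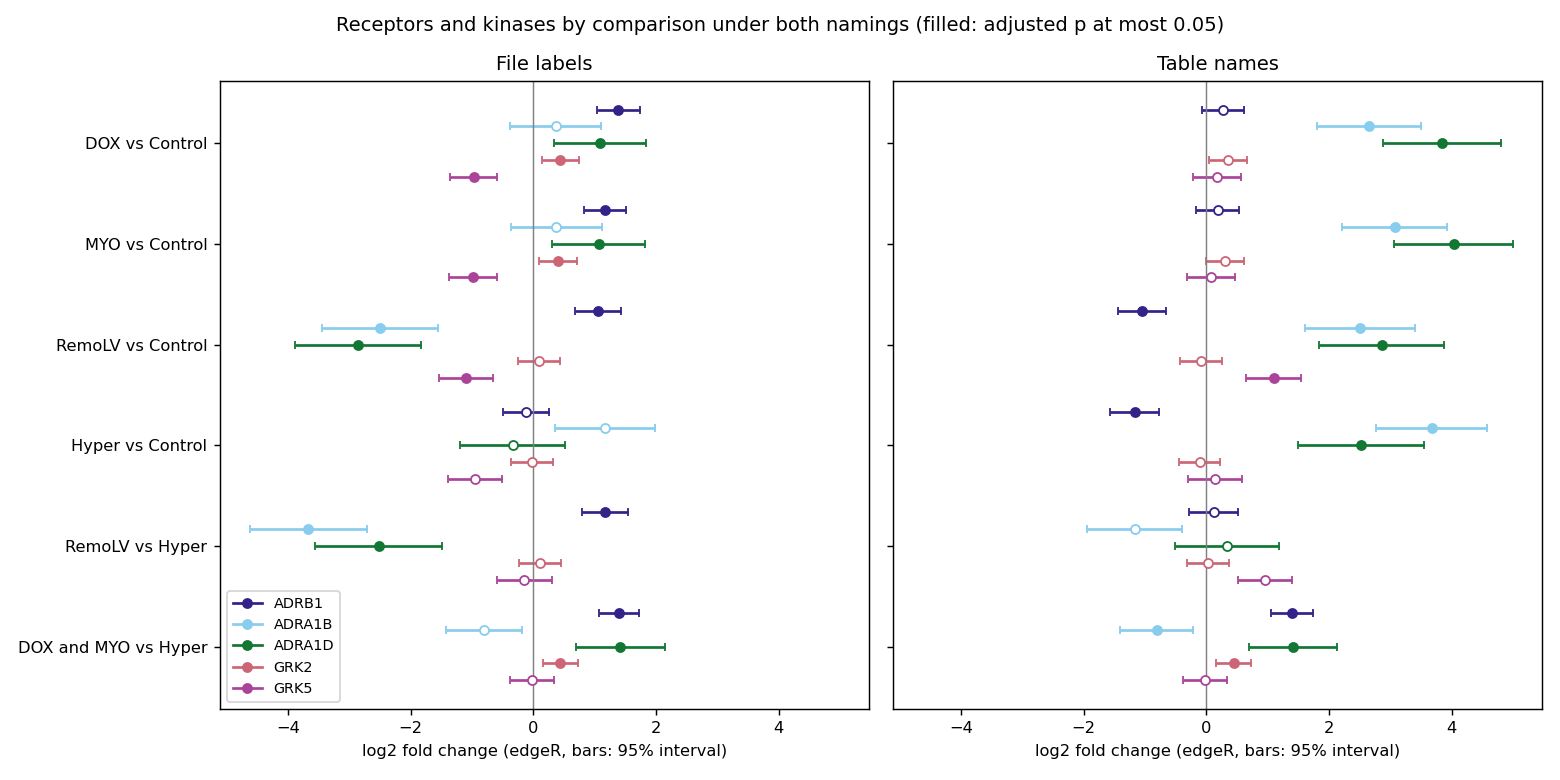
Log2 fold change (x axis) with its 95% interval for 5 of the genes in 6 comparisons (y axis), with the file labels on the left and the table names on the right. Filled points passed an adjusted p of 0.05, and ADRA1A is left out because its RemoLV libraries are at the floor. Several values against Control change their sign or their call with the naming, among them ADRB1 in RemoLV and GRK5 in DOX and MYO. DOX and MYO against Hyper hold the same libraries under both namings, so the calls kept there for ADRB1, ADRA1D and GRK2 are no test of the naming.

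Downstream of the receptors, 9 lists of pathway genes were read in the same fits. They hold 102 symbols, of which 98 were found in the files and 91 were tested. In DOX and MYO against Hyper, 17 of the 91 were higher and 14 lower, with a median log2 fold change of 0.07 beside 0.03 over all genes. Of all genes, 15.8% were higher and 16.9% lower in this comparison, and the counts of these lists, here and below, are to be read beside those shares: a count near them is no result about the list. Against Control, 25 were higher and 22 lower in DOX (21% and 21.1% of all genes), 23 and 25 in MYO (20.7% and 21.7%), 22 and 29 in RemoLV (23.1% and 24%) and 0 and 0 in Hyper (0% and 0%), where DESeq2 called 4 (beside 105 higher and 207 lower of 12486 genes). By the table names the counts were 21 and 16 in DOX (15% and 14.6% of all genes), 19 and 17 for MYO (14.8% and 14.4%), 28 and 22 for RemoLV (24% and 23.2%), and 21 and 19 for Hyper (18.7% and 17.2%). The genes of these lists that passed in DOX and MYO against Hyper are named, some with their levels.

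The largest difference in the G protein list was in GNAS, which encodes the Gsα subunit that links ß receptors to adenylyl cyclase. GNAS was at 7.63 ± 1.92 CPM in Control, 7.63 ± 1.13 in Hyper, 40.2 ± 3.94 in DOX, 46.7 ± 8.98 in MYO and 64.6 ± 8.29 in RemoLV (SD). Its log2 fold change in DOX and MYO against Hyper was 2.50 ± 0.18 SE (adjusted p = 1.03e-08), and against Control it was 2.39 for DOX, 2.61 for MYO and 3.07 for RemoLV. By the table names it was 2.51 against Hyper and turned against Control, to -0.66 for DOX, -0.49 for MYO and -3.07 for RemoLV. Hyper against Control went from -0.01 with the file labels (adjusted p = 0.99) to -3.08 (adjusted p = 7.77e-09). The groups in which GNAS was high are those in which ADRB1 was high. GNAS has 21 annotated transcripts and 1 gene on the opposite strand, and the gene-level counts do not tell its products apart. GNAQ, the Gqα subunit that serves α1 receptors, was lower in DOX and MYO than in Hyper (log2 fold change -0.75, adjusted p = 0.00015), and so was GNAI1, a Giα subunit (-0.67, adjusted p = 0.0113). With GNG2, a γ subunit (0.53, adjusted p = 0.00172), 2 were higher and 2 lower among 16 tested G protein genes.

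Of 8 tested adenylyl cyclases, which make cyclic AMP, 2 were higher and 0 lower in DOX and MYO than in Hyper. ADCY7 was at 9.73 ± 1.83 CPM in Hyper, 22.0 ± 7.67 in DOX and 17.7 ± 3.16 in MYO (log2 fold change 1.02, adjusted p = 0.00177). The other was ADCY5, with ADCY6 the main cyclase of heart muscle cells (0.88, adjusted p = 0.00157). ADCY6 itself was at 288 ± 129 CPM in Control, 439 ± 38.8 in Hyper, 621 ± 98.9 in DOX and 556 ± 138 in MYO, which passed against Control in DOX (1.11, adjusted p = 0.00116) and MYO (0.95, adjusted p = 0.00337) and not against Hyper (0.42, adjusted p = 0.127). By the table names ADCY6 did not pass against Control in DOX (0.49, adjusted p = 0.116) or MYO (0.39, adjusted p = 0.222).

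Among 19 tested genes of protein kinase A, its anchors and EPAC, 3 were higher and 4 lower in DOX and MYO than in Hyper. The catalytic subunits moved in opposite directions: PRKACA was higher (0.49, adjusted p = 0.000101) and PRKACB lower (-0.52, adjusted p = 0.0129) on the log2 scale. AKAP1, which anchors the kinase at mitochondria, was at 121 ± 16.2 CPM in Hyper, 215 ± 30.5 in DOX and 243 ± 30.9 in MYO (log2 fold change 0.92, adjusted p = 3.12e-05). It was also higher than in Control under both namings, by 1.07 and 1.18 in DOX and by 1.25 and 1.33 in MYO. The kinase inhibitors also parted, with PKIG higher (0.38) and PKIA lower (-0.45), and the anchors AKAP5 (-0.63) and AKAP6 (-0.43) were lower. Of 13 tested targets of the kinase and their phosphatases, 2 were higher, the potassium channel gene KCNQ1 (0.36, adjusted p = 0.00454) and the phosphatase subunit PPP1CA (0.22), and 2 lower, the calcium/calmodulin kinase CAMK2D (-0.38, adjusted p = 0.012) and the phosphatase subunit PPP1CC (-0.42).

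Of 10 tested arrestin and RGS genes, 3 were higher and 1 lower in DOX and MYO than in Hyper. ARRB2, the ß-arrestin that binds receptors marked by the kinases, was higher (log2 fold change 0.71, adjusted p = 0.00359). RGS5, which speeds up the switching off of Gα and marks pericytes, was lower (-0.37, adjusted p = 0.00229). The other higher genes were RGS10 (0.77) and RGS14 (1.09). Of the 4 other receptor kinases tested, GRK6 was higher (0.46, adjusted p = 0.0241), at 12.1 ± 3.17 CPM in Hyper, 18.0 ± 2.21 in DOX and 15.4 ± 1.67 in MYO. Of 12 tested α1 effectors, 3 were higher and 4 lower, and the phospholipases C differed among themselves: PLCB2 (1.63, adjusted p = 0.000491) and PLCB3 (0.57, adjusted p = 0.00138) were higher and PLCB1 (-0.55, adjusted p = 0.00539) and PLCB4 (-0.62, adjusted p = 0.00113) lower. The protein kinase PRKCD was higher (1.27), and PRKD1 (-0.53) and the inositol trisphosphate receptor gene ITPR2 (-0.69) were lower. PLCB1 stood at 76.8 ± 16.9 CPM in RemoLV, the Control of the table names, and at 9.43 to 14.3 CPM as group means elsewhere.

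**Figure D5:**
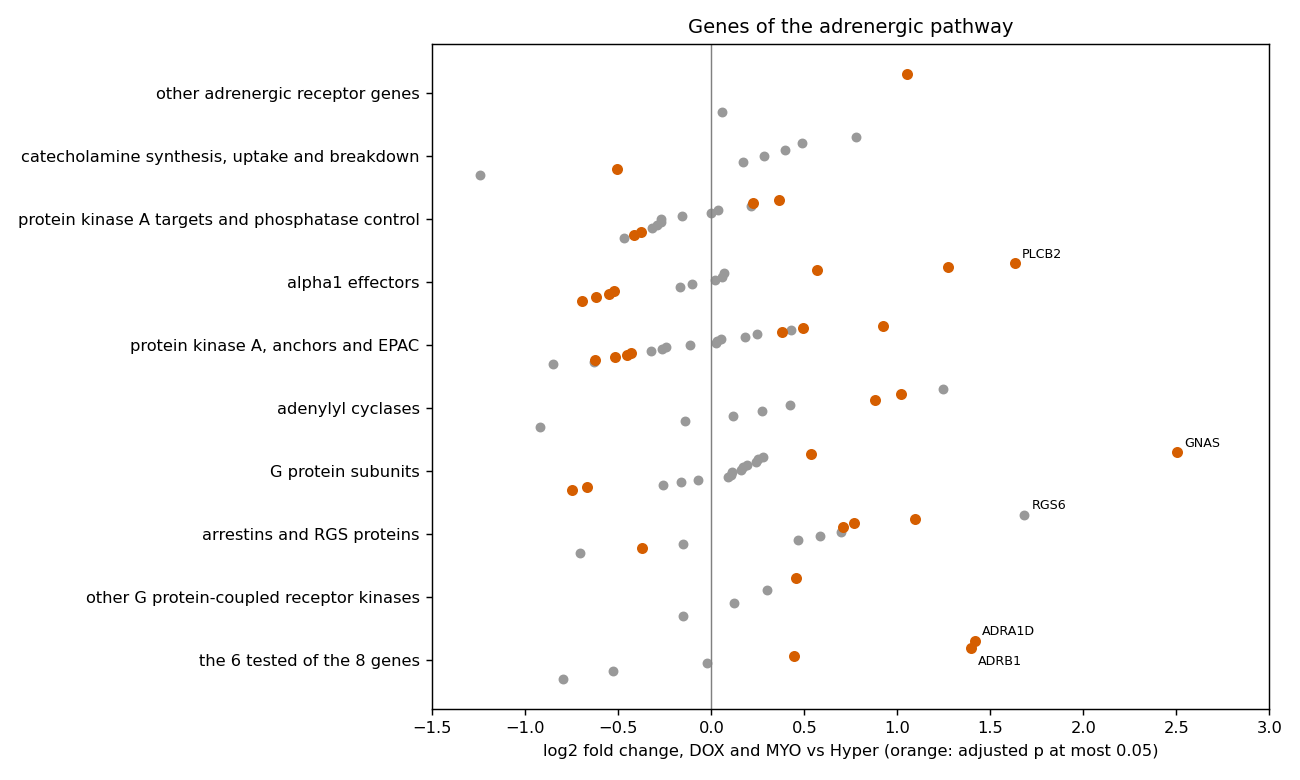
Log2 fold change in DOX and MYO against Hyper (x axis) of every tested gene of the 9 pathway lists and of the 6 tested receptor and kinase genes, by list (y axis). Orange points passed an adjusted p of 0.05. GNAS, at 2.50, lies farthest from 0.

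Of the 7 tested genes of catecholamine synthesis, uptake and breakdown, 0 were higher and 1 was lower in DOX and MYO than in Hyper, the monoamine oxidase MAOA (-0.51, adjusted p = 0.00296). PNMT, which turns noradrenaline into adrenaline, was at 2.19 ± 0.381 CPM in RemoLV against 15.5 ± 6.58 in Control (log2 fold change -2.80, adjusted p = 0.000114). By the table names this turned to 2.80 (adjusted p = 0.000119), and PNMT was then higher than in Control in DOX (2.81), MYO (2.66) and Hyper (2.25, adjusted p = 0.00117) too. The transporter SLC22A3, which clears catecholamines from the tissue, was at 143 ± 76.9 CPM in Control, 57.1 ± 12.5 in Hyper, 64.2 ± 18.0 in DOX, 64.1 ± 16.9 in MYO and 27.2 ± 5.68 in RemoLV. The high Control level is the RemoLV level by the table names. The 7 fibroblast markers summed to 4550 to 7070 CPM in DOX and MYO and to 1540 to 3830 CPM in Hyper. The 3 collagens carried this sum, with COL3A1 at 2480 to 3420 CPM against 667 to 1910 CPM, while DCN, LUM, PDGFRA and TCF21 overlapped between the groups. The Y-chromosome sums also differ between these groups, and the part of both in the differences between DOX and MYO and Hyper was not tested.

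The genes whose levels ran most like each of the 6 across the 16 libraries not labelled RemoLV are a description, since libraries of a group share their treatment. For ADRB1 they were NR2F6 and ITPKB (Spearman rho 0.935 for both) and DAGLA (0.932). For ADRA1A they were SYNC (0.912), PGRMC1 (0.871) and PKP4 (0.853), for ADRA1B PAQR7 (0.876), EFHD1 (0.753) and IKBKB (0.732), and for ADRA1D TPCN1, GPR27 (0.871 for both) and FEN1 (0.868). For GRK2 they were CD44 (0.924), PDIA4 (0.918) and SRL (0.909), and for GRK5 SLCO6A1 (0.835), GSK3B (0.824) and PTPN3 (0.821). Over all 19 libraries only SYNC and PAQR7 stayed among the leading 3 of their gene, with KCNIP2 first for ADRA1A (0.889), SLC8B1 for ADRB1 (0.909), STARD7 for ADRA1D (0.904), ELP5 for GRK2 (0.898) and METTL16 for GRK5 (0.793).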

How the data were processed

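Poly(A) RNA-seq libraries of tissue labelled LV from 19 pigs were used, with 1 library per pig and no pooling. The authors aligned reads to Sscrofa11.1 with STAR, counted them per Ensembl gene by strand with HTSeq 0.11.1, and deposited the counts unscaled. A second table of theirs, deposited for 14744 genes, holds log2-like expression values, and it served here to find the 8 genes by symbol and to match sample names. Its columns of the authors' own DESeq2 fold changes and p-values were not used.

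Counts were scaled by TMM in edgeR 4.0.16 (R 4.3.3), filtered with filterByExpr, and tested by edgeR's quasi-likelihood method, with p-values adjusted after Benjamini and Hochberg over all 13552 genes, in 1 model of the 5 groups. A gene was called at an adjusted p of at most 0.05. CPM are counts per 1000000 of the TMM-scaled library size, and groups with at most 3 counts in each library were given bounds, which like the intervals of shares cover counting error only. P-values measure the spread between these pigs. The test was tried on simulated data first. Alternatives were the table names, RLE factors, DESeq2 1.42.0, other filters, fits of the compared groups, a replicate block and each library left out. Python 3.11.15 with pandas 2.3.3 and numpy 2.4.6 made the tables.

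The 8 genes, the pathway lists and the marker lists were chosen with earlier results of these data known. Named genes were the 8, at most 4 per pathway list with the smallest adjusted p over the 7 comparisons, 3 named markers (MYL2, MYL4 and DDX3Y) and the 3 nearest neighbours by Spearman rho of log2(CPM + 0.5). ADRA2C, IRX4 and the remaining named genes were chosen after their values were seen. 1 gene of the lists is not reported here. DDX3Y was read within the sum of Y-chromosome genes.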

Additional observations from a re-analysis of the deposited data

Results flagged for a closer look

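ADRA1A in the library labelled DOX 5, at 18.2 CPM, lay far from the other 4 DOX libraries, which stood at 3.27 to 5.37 CPM. The gap test was applied to 16 groups of values, and chance alone picks out about 1 in 20 such groups. DOX 5 is named MYO 1 in the authors' table.

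The effects of RemoLV and Hyper, both taken against the same Control libraries, differed for 4 genes in the direct test of RemoLV against Hyper with the file labels. The log2 differences were -8.65 for ADRA1A (a fitted value at the floor, for which the bound of at least 60.1-fold lower holds), -3.67 for ADRA1B, -2.52 for ADRA1D and 1.17 for ADRB1. With the table names none of the 4 passed, and the 3 libraries labelled RemoLV carry the atrial markers given above.

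The effects of DOX and MYO together and of Hyper differed for 3 genes in the direct test, with log2 differences of 1.42 for ADRA1D, 1.39 for ADRB1 and 0.44 for GRK2. These 3 passed with both namings, which hold the same libraries in this comparison, so this is no test of the naming.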

How the results depend on the processing

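Under the table names, the genes called of the 6 went from 0 to 4 in Hyper against Control, from 4 to 0 in RemoLV against Hyper and from 3 to 5 in DOX and MYO against Hyper, and pathway genes from 0 to 40 and from 38 to 0 in the first 2 of these. The share of all genes called went from 0% to 35.8%, from 35.6% to 0% and from 32.6% to 32.7%, in the same order. Log2 fold changes turned against Control to 7.11 (DOX) and 8.26 (RemoLV) for ADRA1A, which are fitted values over a Control group at the floor and no bounds (for RemoLV the bound is at least 45.7-fold higher), and to 2.50 (RemoLV) for ADRA1B, 2.86 (RemoLV) and 2.52 (Hyper) for ADRA1D, -1.05 (RemoLV) for ADRB1, -0.09 (RemoLV) for GRK2, and 0.17 (DOX), 0.07 (MYO), 1.10 (RemoLV) and 0.14 (Hyper) for GRK5. In RemoLV against Hyper they turned to 0.34 for ADRA1D and 0.95 for GRK5, and in DOX against MYO to -0.18 for ADRA1D. These turns follow from the exchange of libraries between groups.

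Fitting only the compared groups left 2 genes called in MYO against Control. A minimum of 10 counts in every library left 3 in RemoLV against Control and 2 in RemoLV against Hyper, since it drops ADRA1A and ADRA1D. DESeq2 called 1 gene and 4 pathway genes in Hyper against Control, beside 105 higher and 207 lower of 12486 genes. With the table names it called 1 gene in DOX against MYO, beside 10 higher and 20 lower of 13535 genes. Under the same names it called 1 gene and 6 pathway genes in RemoLV against Hyper, beside 217 higher and 122 lower of 11436. The replicate numbers did not pair the samples: over 32 pairs with the same number the correlation of deviations was -0.27 to 0.299, with 4 above 0.1. With a replicate block, 3, 3, 5 and 0 genes were called in DOX, MYO, RemoLV and Hyper against Control. Of all 13552 genes, 2370, 2346, 3013 and 0 were then higher and 2423, 2455, 3091 and 0 lower. ADRA1A in MYO turned to -0.14 and GRK5 in DOX and MYO against Hyper to 0.06 in this fit.

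Leaving out 1 library, the genes called ranged from 2 (without Control 3) to 4 in DOX, from 2 (without MYO 2 or Control 3) to 4 in MYO, from 0 to 1 (without Hyper 1 or Control 2) in Hyper against Control, and from 2 (without Hyper 1) to 4 (without DOX 1, DOX 5 or Hyper 2) in DOX and MYO against Hyper. Without Control 3, 1800 of all genes were higher and 1987 lower in DOX, and 1826 and 2056 in MYO. In Hyper against Control 1285 of 13792 were higher and 1253 lower without Control 2, and 330 and 443 of 13795 without Hyper 1. In DOX and MYO against Hyper 1103 were higher and 1427 lower without Hyper 1. With the table names the genes called of the 6 ranged from 0 to 1 in DOX against MYO (without MYO 2 or MYO 5) and in RemoLV against Hyper (without the table's Hyper 3, which is the file Hyper 1, or its RemoLV 2), and from 2 (without its Hyper 3) to 5 in DOX and MYO against Hyper, where leaving out DOX 2, 3 or 5 left 3. In RemoLV against Hyper 451 of all genes were then higher and 334 lower without its Hyper 3, and 1276 and 1292 without its RemoLV 2. Pathway genes called ranged from 28 (without Control 3) to 48 in DOX and from 0 to 19 (without Control 2) in Hyper against Control, and from 19 (without Hyper 1) to 36 in DOX and MYO against Hyper. With the table names these were 17 (without the table's Hyper 3) to 35 in the last comparison and 0 to 18 (without its RemoLV 2) in RemoLV against Hyper. Each count with a named library is out of 92 tested and is to be read beside the counts of all genes without that library. These are given above, and without the table's Hyper 3 they were 1131 higher and 1440 lower of 13795 in DOX and MYO against Hyper. A count near the share of all genes is no result about the list.

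Values that had passed no test changed sign in some of these fits. Against Control the ranges were -0.14 to 0.40 for ADRA1A in MYO, -0.28 to 0.12 for ADRB1 and -0.19 to 0.15 for GRK2 in Hyper, and -0.08 to 0.22 for GRK2 in RemoLV. In DOX against MYO they were -0.27 to 0.17 for ADRA1B, -0.14 to 0.24 for ADRA1D, -0.01 to 0.11 for GRK2 and -0.06 to 0.09 for GRK5. In RemoLV against Hyper they were -0.06 to 0.25 for GRK2 and -0.27 to 0.00 for GRK5, and in DOX and MYO against Hyper -0.07 to 0.01 for GRK5 under both namings. With the table names they were -0.12 to 0.28 for ADRB1 and -0.15 to 0.19 for GRK2 in RemoLV against Hyper, 0.00 to 0.11 for GRK2 in DOX against MYO, -0.25 to 0.06 (Hyper) and -0.22 to 0.08 (RemoLV) for GRK2, and 0.00 to 0.27 (Hyper) and -0.07 to 0.19 (MYO) for GRK5 against Control. The cause of these changes was not tested. Without the 3 libraries labelled RemoLV, an alternative added after the data were seen, GRK2 in MYO against Control lost its call, and the calls of the other genes in the comparisons without RemoLV were kept. Depth limits ADRA2A and ADRB3, at 0 to 6 counts per library.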
